A study of Mus musculus with 9 samples.

Results

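The 36 genes described here encode the glucose transporters, the enzymes of glycolysis, the exporters of lactate, the kinases that switch pyruvate dehydrogenase off and the enzymes of the pentose phosphate pathway. They were chosen by gene symbol from a list made by function, with earlier results of these data known. All 36 were among the 23284 gene symbols measured in each sample. The samples were splenic myeloid-derived suppressor cells (MDSCs), immature myeloid cells that accumulate in tumour-bearing mice, in 3 groups of 3. PMN-MDSCs (neutrophil-like, Ly6G+) and Mo-MDSCs (monocyte-like, Ly6G- and Gr-1+) were taken from C57BL/6J mice wild-type (WT) for p16 and p21, and Mo-MDSCs were also taken from p16/p21 double knockout (DKO) mice labelled C57BL/6. All mice bore SCT cells, a spindle cell tumour line that itself came from the skin of a p16 knockout mouse. The labels give an age of 3 weeks for every sample, and the study's methods give 3 weeks as the time from inoculation to collection. No label states whether a sample came from 1 animal or from several, so the spread between samples may be in part technical. PMN-MDSCs from DKO mice were not analysed here.

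Glycolysis splits glucose into pyruvate. The cell then either reduces pyruvate to lactate and exports it, or burns it in the mitochondria after pyruvate dehydrogenase has acted. The pentose phosphate pathway branches off at glucose 6-phosphate: its oxidative steps (G6pdx, Pgls, Pgd) make NADPH, and its non-oxidative steps (Taldo1, Tkt) return sugars to glycolysis. Neutrophils are known to depend heavily on glycolysis, to carry few mitochondria and to spend NADPH on the oxidative burst.

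Values were FPKM, fragments scaled to transcript length and library size, so levels can be set side by side between genes. The members spanned a wide range. In PMN-MDSCs 15 of the 36 had a mean of at least 100 FPKM, 27 at least 10 FPKM and 34 at least 1 FPKM. In WT Mo-MDSCs these numbers were 10, 28 and 34. Taldo1, Gapdh and Aldoa were the highest members in all 3 groups, and their ranks among all symbols by mean FPKM were 122, 157 and 204 in PMN-MDSCs and 190, 196 and 258 in WT Mo-MDSCs. Fbp1, which runs the phosphofructokinase step backwards, and Eno2, the neuronal enolase, stayed below 1 FPKM in every sample (highest values 0.98 and 0.34) and were not tested, which left 34 members in each comparison. The symbol Pgm2 is used for different phosphoglucomutases in older and newer annotations, so its values are given under the name in the files only.

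**Figure D1:**
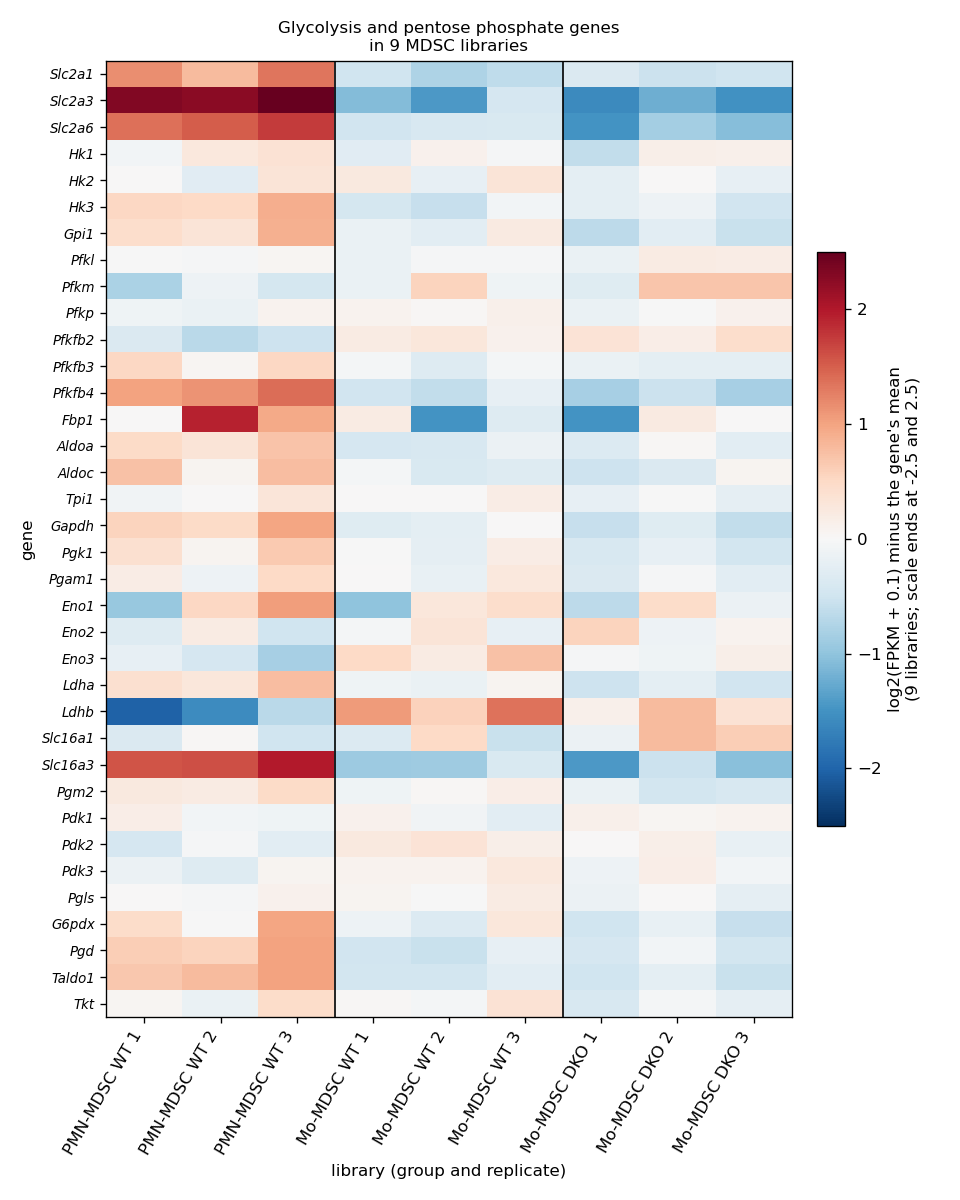
Level of each of the 36 genes (rows) in each of the 9 libraries (columns), as log2(FPKM + 0.1) minus the gene's mean over the 9 libraries, with red above and blue below that mean. Slc2a3, Slc2a6 and Slc16a3 are red in all PMN-MDSC libraries and blue in all Mo-MDSC libraries, Ldhb shows the opposite, and Eno1 is blue in replicate 1 of every group.

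The libraries of a group resembled each other and differed in a few ways that touch the results below. Total FPKM was 711675 to 916642 in PMN-MDSCs, 549976 to 618250 in WT and 494252 to 534354 in DKO Mo-MDSCs, whereas the upper quartile of genes above 0 was between 22.02 and 24.49 in all 9. Numbers of reads are not in the files, so the depth is unknown. Steps of low genes put it between 0.81 and 1.31 times that of WT Mo-MDSC replicate 1. Summed FPKM of 11 neutrophil marker genes ranged in PMN-MDSCs from 102600 to 239800. The sum was 18810 to 64760 in the WT Mo-MDSC libraries (highest in replicate 3) and 7457 to 18030 in the DKO libraries. S100a8 and S100a9 made up most of each sum. Between the WT subsets 7 of the 11 genes were called, all lower in Mo-MDSCs, while Ltf, Camp, Ngp and Lcn2 overlapped. The monocyte marker Ccr2 was 2.36, 2.51 and 2.38 FPKM in PMN-MDSCs, 362, 281 and 336 in WT and 178, 202 and 160 in DKO Mo-MDSCs, whereas Csf1r, the receptor of macrophage colony-stimulating factor, overlapped between all 3 groups (674 to 919 FPKM). Genes of red cell precursors (Hba-a1, 1110 to 2656 FPKM) were present in every library. Those of B cells and of macrophages and dendritic cells were present too and differed between the groups. Summed FPKM of 9 B cell genes was 1685 to 1942 in PMN-MDSCs, 1246 to 1410 in WT and 1325 to 1713 in DKO Mo-MDSCs, and between the WT subsets 3 of the 9 were called, all lower in Mo-MDSCs (Cd79a, Cd79b and Ebf1). Summed FPKM of 14 macrophage and dendritic cell genes was 7862 to 8860 in PMN-MDSCs, 5074 to 6139 in WT and 6334 to 9072 in DKO Mo-MDSCs, and between the WT subsets 6 of 13 tested were called lower in Mo-MDSCs (the lowest C1qc, log2 fold change -0.71) and 1, Flt3, higher. Over all genes tested between the WT subsets, 20.6% were called lower and 18.5% higher in Mo-MDSCs. The B cell and macrophage counts depend on the scaling. With libraries scaled to the same total FPKM, 1 B cell gene was called higher and 0 lower. Of the macrophage and dendritic cell genes 3 were higher and 0 lower. With quantile normalization these were 1 and 1 for B cell genes and 3 and 1 for the others. The part of these genes in the results below was not tested. The deleted genes did not separate the genotypes. Cdkn2a, which encodes p16, was 0.36, 1.47 and 1.36 FPKM in PMN-MDSCs, 0.72, 0.77 and 0.43 in WT and 0.26, 0.59 and 0 in DKO Mo-MDSCs. Cdkn1a, which encodes p21, was 2.95, 1.83 and 2.40 FPKM in PMN-MDSCs, 8.18, 6.46 and 8.04 in WT and 5.55, 8.52 and 6.00 in DKO Mo-MDSCs. A value per gene does not distinguish the deleted part from the rest of the transcript, and "DKO" below means the libraries labelled so.

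First, WT Mo-MDSCs were compared with WT PMN-MDSCs to see how the pathway differs between the subsets. Most of the sugar-handling genes that differed were lower in Mo-MDSCs: of the 34 members tested, 14 fell and 4 rose at an adjusted p below 0.05 (limma, adjusted over all 11491 genes tested), and 16 did not pass. Over all genes tested 39.1% were called, 20.6% lower and 18.5% higher, so a difference as such is common between these subsets. The genes that fell were the glucose transporters Slc2a1, Slc2a3 and Slc2a6, the enzymes Hk3, Gpi1, Pfkfb3, Pfkfb4, Aldoa, Aldoc, Gapdh and Ldha, the lactate exporter Slc16a3, and Pgd and Taldo1 of the pentose phosphate pathway. Those that rose were Pfkfb2, Eno3, Ldhb and Pdk2. In bulk samples such as these, fewer cells that express a gene and less of its RNA per cell cannot be told apart. The median log2 fold change of the 34 members was -0.29, against 0.01 over all genes. The mean of log2(FPKM + 0.1) over the 36 members was 5.08, 5.13 and 5.39 in PMN-MDSCs and 4.71, 4.67 and 4.88 in WT Mo-MDSCs, without overlap, a difference of -0.45. A gene was without overlap between the subsets in 52.5% of cases. Of the members 15 were lower in this way (26.4% of all genes) and 5 higher (26.2%), 24 had a log2 fold change below 0 (49.2%), and 20 had an unadjusted p below 0.05 (48.3%). By the thresholds used in the study for the subsets, a fold change above 2 or below 0.5 with an unadjusted p below 0.05, 8 members were lower (6.65% of all genes) and 1, Ldhb, was higher (3.55%).

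Subset libraries with the same replicate number deviated together, and in a fit blocked on that number 19 members fell and 6 rose, while 57.3% of all genes were called. The 7 members called with the block but not in the same fit without it were Hk1, Pgk1, Pgam1, Pgm2 and G6pdx, which fell, and Pfkm and Pdk3, which rose. Scaling all libraries to the same total FPKM moved the median of all genes to 0.45 and turned the balance of calls over all genes from 2121 higher and 2371 lower to 5821 higher and 950 lower. Under that scaling 10 members were still lower and 12 were higher, with a member median of 0.15, which is again below that of all genes. As a share of total FPKM, the members made up 0.617%, 0.630% and 0.655% in PMN-MDSCs and 0.477%, 0.491% and 0.538% in WT Mo-MDSCs. In this summed share every PMN-MDSC library was above every WT Mo-MDSC library, but the most abundant members, such as Taldo1, Gapdh and Aldoa, weigh most in it. The mean of log2(FPKM + 0.1), in which each member weighs the same, did not keep its difference. That difference was -0.45 as deposited and -0.02 on scaling to the total. Of the 18 calls, 10 of the 14 lower and all 4 higher ones held with the same sign under scaling to the total, median-ratio scaling and quantile normalization. The lower calls that did not hold were Gpi1, Pfkfb3, Aldoc and Ldha, marked with their values below. Leaving out single samples could also undo them, with limma adjusted p up to 0.10, 0.11, 0.11 and 0.067 in that order. Scaling to the total also called 8 members that were not called as deposited with all samples and no block. All were higher in Mo-MDSCs (Hk2, Pfkl, Pfkm, Pfkp, Tpi1, Pdk3, Pgls and Tkt). Quantile normalization called 4 of these (Tpi1, Pdk3, Pgls and Tkt).

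**Figure D2:**
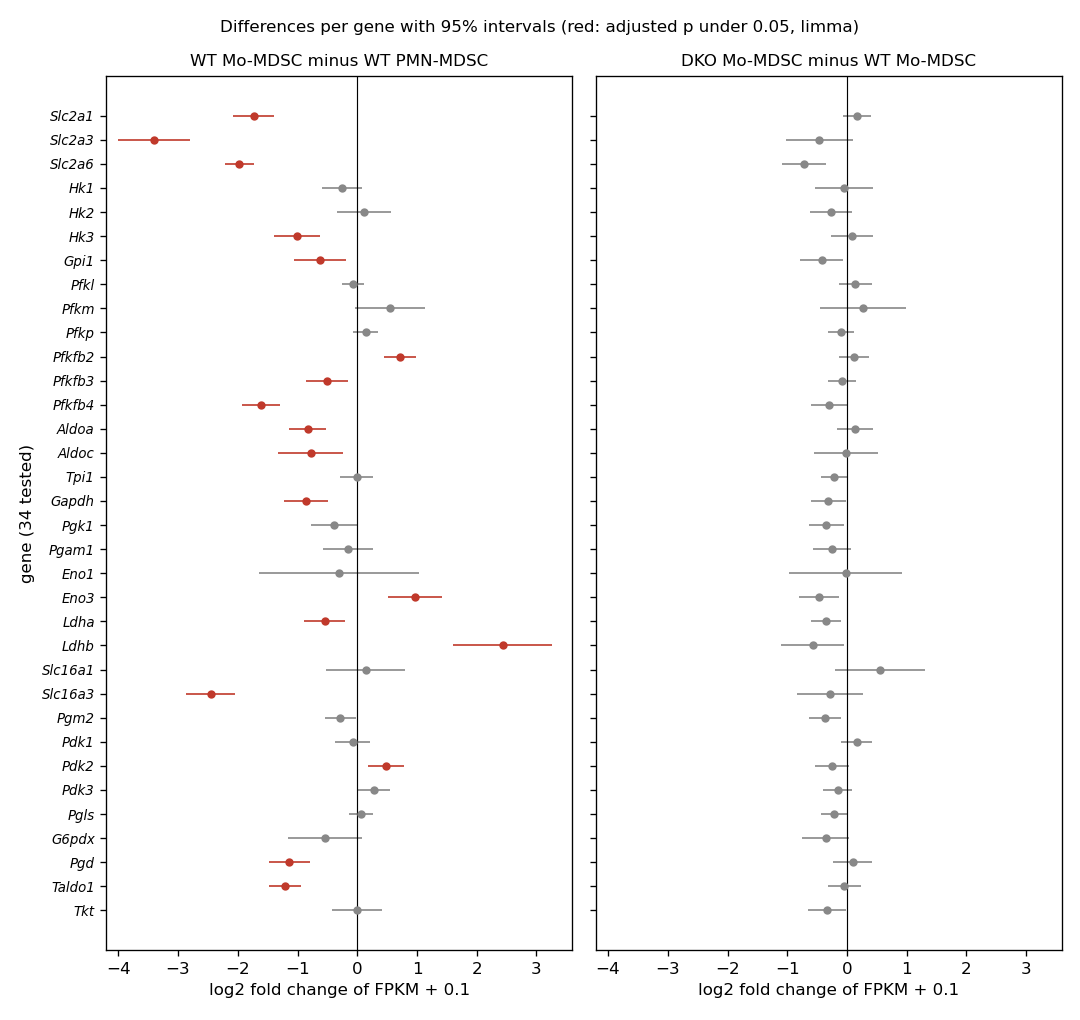
Log2 fold change of FPKM + 0.1 (points) with its 95% interval (lines) for the 34 tested genes, WT Mo-MDSCs minus PMN-MDSCs on the left and DKO minus WT Mo-MDSCs on the right, with red for an adjusted p below 0.05 over all genes. The left panel has 14 red points below and 4 above 0, and the right panel has no red point.

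At the entry of glucose, Slc2a3 (GLUT3, a high-affinity transporter) showed the largest difference of all members. It was 136, 131 and 180 FPKM in PMN-MDSC replicates 1 to 3 and 12.9, 9.98 and 20.3 FPKM in WT Mo-MDSCs (log2 fold change -3.41, SE 0.26, limma adjusted p = 9.61e-05). The lowest PMN-MDSC library was thus far above the highest Mo-MDSC library, which is replicate 3, the one with the highest sum of neutrophil markers. Slc2a1 (GLUT1, the widespread basal transporter) was 44.4, 34.3 and 49.7 FPKM in PMN-MDSCs and 13.9, 11.4 and 12.7 FPKM in WT Mo-MDSCs (log2 fold change -1.74, SE 0.15, limma adjusted p = 0.00016). Slc2a6 (GLUT6, a transporter found on lysosomes of myeloid cells) was 70.4, 77.4 and 91.2 FPKM in PMN-MDSCs and 19.3, 20.3 and 20.8 FPKM in WT Mo-MDSCs (log2 fold change -1.97, SE 0.11, limma adjusted p = 2.52e-05). All 3 transporters fell, but by unequal amounts. Slc2a3 made up 54.7% ± 1.2 (SD, n = 3) of the summed FPKM of the 3 transporters in PMN-MDSCs and 29.9% ± 7.1 (SD, n = 3) in WT Mo-MDSCs, where Slc2a6 led with 43.1% ± 5.1 (SD, n = 3). The groups did not overlap in either share, and the exact permutation p of 0.1 is the smallest that 3 samples against 3 can give.

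Among the hexokinases, which trap glucose as glucose 6-phosphate, the myeloid isozyme Hk3 was the highest. On the deposited scale without the replicate block, Hk3 was the only one called. It was 113, 112 and 148 FPKM in PMN-MDSCs and 58.0, 52.6 and 74.99 FPKM in WT Mo-MDSCs (log2 fold change -1.01, SE 0.16, limma adjusted p = 0.0029). Hk1 (28.5 to 38.5 FPKM against 24.5 to 32.3 FPKM) and Hk2 (13.1 to 19.9 FPKM against 13.9 to 20.04 FPKM) overlapped between the groups. With the replicate block Hk1 was called lower (log2 fold change -0.25, limma adjusted p = 0.018). On scaling to the total Hk2 was called higher (log2 fold change 0.55, limma adjusted p = 0.012). Hk3 was accordingly 71.1% ± 1.2 (SD, n = 3) of hexokinase FPKM in PMN-MDSCs and 57.0% ± 3.6 (SD, n = 3) in WT Mo-MDSCs. Gpi1, the next enzyme, was 277, 256 and 380 FPKM in PMN-MDSCs and 183, 170 and 240 FPKM in WT Mo-MDSCs. Its log2 fold change of -0.62 (SE 0.18, limma adjusted p = 0.035) was not called when libraries were scaled to the total (-0.17) or by quantiles (-0.16).

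The phosphofructokinases, which catalyse the committed step, did not pass the test: the log2 fold change was -0.07 for Pfkl, 0.14 for Pfkp and 0.55 for Pfkm (limma adjusted p = 0.51, 0.26 and 0.12). With the replicate block Pfkm was called higher (limma adjusted p = 0.0066), and on scaling to the total all 3 were. Pfkl was 15.8, 15.5 and 16.3 FPKM in PMN-MDSCs and 14.1, 15.6 and 15.6 FPKM in WT Mo-MDSCs (95% interval of the log2 fold change -0.25 to 0.11). The enzymes that set the level of their activator fructose 2,6-bisphosphate differed more. Pfkfb4 was 102, 110 and 132 FPKM in PMN-MDSCs and 35.9, 32.8 and 43.5 FPKM in WT Mo-MDSCs (log2 fold change -1.61, SE 0.14, limma adjusted p = 0.00016). Pfkfb3, the isozyme with the strongest kinase activity, was 25.8, 18.6 and 25.6 FPKM in PMN-MDSCs and 17.3, 14.3 and 17.4 FPKM in WT Mo-MDSCs. Each Mo-MDSC library was below each PMN-MDSC library (log2 fold change -0.50, SE 0.15, limma adjusted p = 0.035), but the call was lost on scaling to the total (-0.06). Pfkfb2, the heart-type isozyme, moved the other way, from 4.51, 3.61 and 4.00 FPKM in PMN-MDSCs to 6.70, 7.04 and 6.28 FPKM in WT Mo-MDSCs (log2 fold change 0.71, SE 0.11, limma adjusted p = 0.0029). Pfkfb4 made up 80.6% ± 3.2 (SD, n = 3) of the FPKM of these 3 enzymes in PMN-MDSCs and 61.8% ± 2.6 (SD, n = 3) in WT Mo-MDSCs.

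From aldolase to enolase, some abundant enzymes fell and others did not. Aldoa, the main aldolase, was 532, 480 and 630 FPKM in PMN-MDSCs and 285, 290 and 347 FPKM in WT Mo-MDSCs (log2 fold change -0.83, SE 0.13, limma adjusted p = 0.0026). Gapdh, often taken as a reference gene, was 692, 655 and 923 FPKM in PMN-MDSCs and 379, 393 and 471 FPKM in WT Mo-MDSCs (log2 fold change -0.86, SE 0.15, limma adjusted p = 0.0046). Both were thus higher in every PMN-MDSC library than in any Mo-MDSC library, whereas Tpi1, the enzyme between them, overlapped, with 80.7, 85.9 and 106 FPKM against 85.3, 86.1 and 97.5 FPKM (log2 fold change -0.01, 95% interval -0.29 to 0.27). Tpi1 was called higher in Mo-MDSCs on scaling to the total (0.43, limma adjusted p = 0.0054) and with quantiles (0.31, limma adjusted p = 0.029). Pgk1 and Pgam1, the next 2 enzymes, overlapped between the groups (log2 fold changes -0.38 and -0.15, limma adjusted p = 0.11 and 0.53), but with the replicate block both were called lower (limma adjusted p = 0.0014 and 0.043). Aldoc, a low brain-type aldolase, was 3.05, 1.89 and 3.12 FPKM in PMN-MDSCs and 1.73, 1.34 and 1.41 FPKM in WT Mo-MDSCs. Its log2 fold change of -0.78 (SE 0.23, limma adjusted p = 0.033) was not called on scaling to the total (-0.37), and with under 1% of aldolase FPKM in every library it left Aldoa as the aldolase of both subsets. Eno3, the muscle-type enolase, rose from 9.62, 8.28 and 6.26 FPKM in PMN-MDSCs to 15.8, 12.9 and 18.7 FPKM in WT Mo-MDSCs (log2 fold change 0.97, SE 0.19, limma adjusted p = 0.0067).

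Eno1, the main enolase, could not be compared with any precision. It was 52.2, 146 and 208 FPKM in PMN-MDSCs, 50.5, 123 and 136 FPKM in WT Mo-MDSCs and 64.2, 139 and 91.1 FPKM in DKO Mo-MDSCs, so replicate 1 was the lowest in all 3 groups. The standard error of its log2 fold change between the subsets was 0.57, the largest of the members. The labels give replicate 1 of each group a lower library number than replicates 2 and 3. Replicate 1 was 1.74, 1.36 and 0.81 below the mean of replicates 2 and 3 on the log2 scale in PMN-MDSCs, WT and DKO Mo-MDSCs. Of 10622 genes with at least 1 FPKM in all libraries, 27, Eno1 included, were that far below in all 3 groups; several of the others, chosen for naming after their values were seen, are genes of red cell precursors such as Gata1, Klf1 and Slc4a1. A near copy listed as Gm5506 was highest in replicate 1 of each group but at most 1.17 FPKM. In DKO Mo-MDSCs it was 0.69 FPKM in replicate 1 and 0.68 FPKM in replicate 2. Whether reads of Eno1 were divided between such copies was not tested.

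Among the genes that handle lactate, Ldhb and Slc16a3 differed widely between the subsets. Lactate dehydrogenase is built from an A chain (Ldha), found in tissues that make lactate, and a B chain (Ldhb), found in tissues that use it. Ldha was 277, 255 and 362 FPKM in PMN-MDSCs and 197, 187 and 222 FPKM in WT Mo-MDSCs. It fell by 0.55 on the log2 scale (SE 0.14, limma adjusted p = 0.022), but only by 0.10 and without a call on scaling to the total, and by 0.09 with quantiles. Ldhb was 1.37, 1.90 and 3.63 FPKM in PMN-MDSCs and 12.4, 8.86 and 15.3 FPKM in WT Mo-MDSCs, the largest rise of all members (log2 fold change 2.43, SE 0.35, limma adjusted p = 0.0019). The ratio of Ldha to Ldhb, which a single scaling factor per library cannot change, was 202, 134 and 99.9 in PMN-MDSCs and 15.9, 21.1 and 14.5 in WT Mo-MDSCs. Ldha remained the predominant chain in both, with 99.3% ± 0.25 (SD, n = 3) and 94.4% ± 0.99 (SD, n = 3) of the FPKM of the pair.

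Of the transporters that carry lactate across the membrane, Slc16a3 (MCT4, an exporter of glycolytic cells) was 94.8, 97.4 and 126 FPKM in PMN-MDSCs and 16.8, 17.1 and 24.4 FPKM in WT Mo-MDSCs (log2 fold change -2.45, SE 0.17, limma adjusted p = 7.58e-05). Slc16a1 (MCT1, which carries lactate both ways) was 6.57, 8.58 and 5.95 FPKM in PMN-MDSCs and 6.65, 12.0 and 5.68 FPKM in WT Mo-MDSCs (log2 fold change 0.14, limma adjusted p = 0.72). After Slc2a3, Slc16a3 thus showed the second-largest fall of the members, whereas the groups overlapped in Slc16a1. Slc16a3 was 93.6% ± 1.8 (SD, n = 3) of the FPKM of the pair in PMN-MDSCs and 70.5% ± 11.3 (SD, n = 3) in WT Mo-MDSCs. Of the pyruvate dehydrogenase kinases, which hold pyruvate back from the mitochondria, Pdk2 rose from 4.16, 5.50 and 4.66 FPKM to 6.69, 7.12 and 6.17 FPKM (log2 fold change 0.48, SE 0.13, limma adjusted p = 0.023). This call was lost without variance moderation, with replicates 2 and 3 only, and on leaving out any 1 of PMN-MDSC replicates 1 and 3 and WT Mo-MDSC replicates 1 and 2 (adjusted p up to 0.073). Pdk3, the highest of them, was 18.9, 16.9 and 22.1 FPKM in PMN-MDSCs and 22.3, 22.4 and 25.3 FPKM in WT Mo-MDSCs (log2 fold change 0.28, limma adjusted p = 0.093, and 0.010 with the replicate block), and Pdk1 had a log2 fold change of -0.08.

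**Figure D3:**
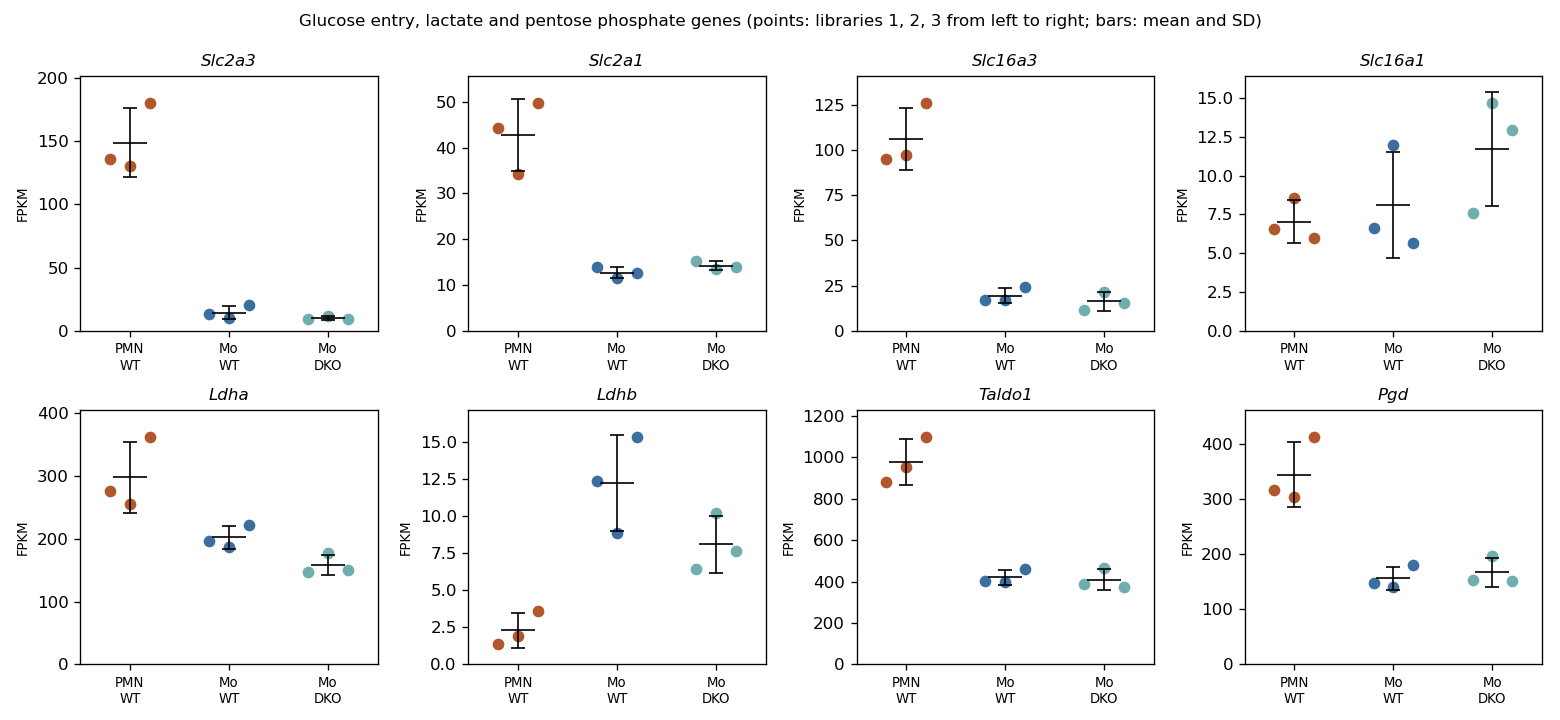
FPKM of 8 genes in the 9 libraries (points, replicates 1 to 3 from left to right within a group) with the mean and SD of each group (bars, n = 3). Slc2a3, Slc2a1, Slc16a3, Taldo1 and Pgd lie higher in every PMN-MDSC library than in any Mo-MDSC library, Ldhb lies lower, and Slc16a1 overlaps.

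In the pentose phosphate pathway the called genes were Pgd and Taldo1. Pgd, which makes the second NADPH of the oxidative branch, was 316, 305 and 413 FPKM in PMN-MDSCs and 147, 141 and 180 FPKM in WT Mo-MDSCs (log2 fold change -1.14, SE 0.15, limma adjusted p = 0.0011). Taldo1, transaldolase, was 880, 951 and 1098 FPKM in PMN-MDSCs and 402, 397 and 459 FPKM in WT Mo-MDSCs (log2 fold change -1.22, SE 0.11, limma adjusted p = 0.00025). Every PMN-MDSC library was above every Mo-MDSC library for both. G6pdx, which commits glucose 6-phosphate to the pathway, ranged from 128 to 254 FPKM in PMN-MDSCs and from 102 to 156 FPKM in WT Mo-MDSCs, and its log2 fold change of -0.54 (SE 0.26, limma adjusted p = 0.14) was called only with the replicate block (adjusted p = 0.0019) and without PMN-MDSC replicate 2 (adjusted p = 0.037). Tkt, transketolase, was 201, 174 and 268 FPKM in PMN-MDSCs and 200, 188 and 250 FPKM in WT Mo-MDSCs (log2 fold change 0.00, 95% interval -0.42 to 0.42), and Pgls had a log2 fold change of 0.06. On scaling to the total both were called higher in Mo-MDSCs (0.44 and 0.51, limma adjusted p = 0.0093 and 0.0034), and also with quantiles (0.43 and 0.35). The ratio of Taldo1 to Tkt, the paired enzymes of the non-oxidative branch, was accordingly 4.37, 5.45 and 4.09 in PMN-MDSCs and 2.01, 2.11 and 1.83 in WT Mo-MDSCs.

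**Figure D4:**
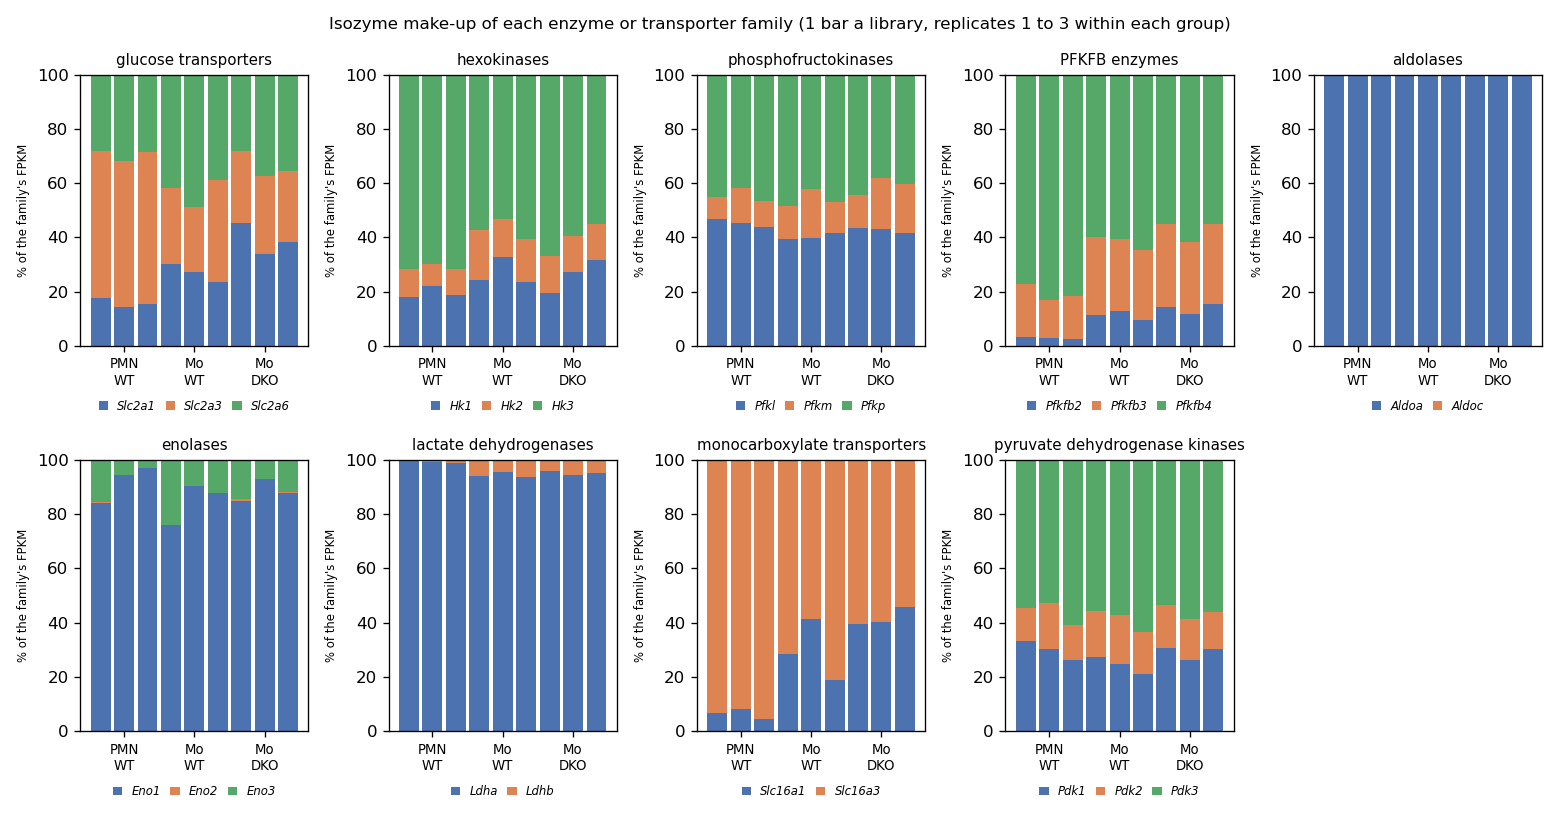
Percent of the summed FPKM of each enzyme or transporter family that falls to each of its members among the 36 genes, 1 bar per library, with replicates 1 to 3 from left to right within each group. The share of Slc2a3, Hk3, Pfkfb4 and Slc16a3 is larger in every PMN-MDSC library than in any Mo-MDSC library, the share of Ldhb is larger in every Mo-MDSC library, and the aldolases are almost wholly Aldoa.

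Several called genes are known targets of the hypoxia-inducible factors, whose core site is ACGTG or GCGTG, or of E-box factors, whose site CACGTG contains ACGTG. The 250 bases before the RefSeq start (GRCm38.p6) were searched on both strands for ACGTG and CACGTG, and not for GCGTG. This was done for the 34 members that had a sequence under an unambiguous symbol. A gene counted when any of its windows held the site. The windows of all genes were not matched to the members for expression or base composition. ACGTG was found in 14 of the 34 (41.2%), against 16.6% of all 32851 windows and 18.5% of all 27025 genes with a window, and CACGTG in 6 of the 34 (17.6%), against 6.02% of windows and 6.86% of genes. ACGTG stood before 6 members that fell (Ldha, Slc16a3, Slc2a1, Hk3, Aldoa and Pfkfb3), before Pfkfb2 and Pdk2, which rose, and before members that were not called, such as Pfkm, Pgk1 and Slc16a1. It was not found before the other 7 members with a window that fell (Slc2a6, Gpi1, Pfkfb4, Aldoc, Gapdh, Pgd and Taldo1), nor before Eno3 and Ldhb, which rose. Shown here, for the lactate genes and 2 glucose transporters described above, are the stretches from 250 bases before the start up to the first annotated exon base or the start, 5′ to 3′ on the gene's strand, with ACGTG on either strand in capitals. They are Slc2a1 at chr4:119108495-119108710 (+), Slc2a6 at chr2:27027999-27028248 (-), Ldha at chr7:46845554-46845803 (+), Ldhb at chr6:142507958-142508207 (-) and Slc16a3 at chr11:120948817-120949052 (+).
Slc2a1: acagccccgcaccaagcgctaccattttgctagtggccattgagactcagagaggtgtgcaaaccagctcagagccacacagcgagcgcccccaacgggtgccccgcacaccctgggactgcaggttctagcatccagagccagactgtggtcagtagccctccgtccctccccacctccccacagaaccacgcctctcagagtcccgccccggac
Slc2a6: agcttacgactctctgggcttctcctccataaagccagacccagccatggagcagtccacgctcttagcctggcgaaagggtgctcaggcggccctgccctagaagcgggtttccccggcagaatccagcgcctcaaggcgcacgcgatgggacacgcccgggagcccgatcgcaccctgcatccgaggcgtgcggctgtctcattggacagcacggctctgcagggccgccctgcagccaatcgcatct
Ldha: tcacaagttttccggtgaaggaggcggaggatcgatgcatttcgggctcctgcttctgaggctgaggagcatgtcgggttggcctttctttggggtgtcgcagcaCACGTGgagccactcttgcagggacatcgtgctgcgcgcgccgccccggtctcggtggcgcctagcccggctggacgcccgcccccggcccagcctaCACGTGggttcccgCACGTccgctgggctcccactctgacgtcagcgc
Ldhb: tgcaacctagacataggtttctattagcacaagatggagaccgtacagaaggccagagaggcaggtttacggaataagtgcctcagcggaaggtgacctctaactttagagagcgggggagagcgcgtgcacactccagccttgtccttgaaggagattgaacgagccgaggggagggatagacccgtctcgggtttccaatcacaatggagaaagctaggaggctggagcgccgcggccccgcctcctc
Slc16a3: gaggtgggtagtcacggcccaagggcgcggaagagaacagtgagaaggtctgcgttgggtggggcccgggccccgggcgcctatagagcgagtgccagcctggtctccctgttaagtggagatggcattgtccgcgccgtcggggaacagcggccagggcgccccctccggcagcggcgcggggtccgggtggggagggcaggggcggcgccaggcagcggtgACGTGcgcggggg
Ldha held 3 such stretches, 2 of them the full CACGTG, while Ldhb held none. The ACGTG match of Slc2a1 and the second ACGTG match of Slc16a3 lie in annotated exon sequence and are not printed. A match is a run of letters and not a bound site, and the binding of any factor was not measured in these samples.

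Second, DKO were compared with WT Mo-MDSCs to see whether the pathway depends on p16 and p21. None of the 34 members passed an adjusted p below 0.05 (limma, lowest 0.15), where 0.253% of the 11451 genes tested were called, 0.166% higher and 0.0873% lower. At an unadjusted p below 0.05 there were 9 members, all lower in DKO (Slc2a6, Gpi1, Gapdh, Pgk1, Eno3, Ldha, Ldhb, Pgm2 and Tkt), against 9.74% of all genes that were lower at that p. A gene-by-gene fit without variance moderation also called none, and no gene of any kind. By the thresholds used in the study for this comparison, a fold change under 0.75 with an unadjusted p below 0.05, 4 members were lower (background 4.43% of genes) and none was higher by the same ratio. The 4 were Slc2a6, Gpi1, Eno3 and Ldhb. This number was 1 without WT Mo-MDSC replicate 3, 2 without DKO replicate 3, 9 without DKO replicate 2, and 9 lower and 1 higher without WT Mo-MDSC replicate 2.

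The direction was mostly downward but small. Of the 34 members, 25 had a log2 fold change below 0, against 53.5% of all genes, and the median was -0.22 against -0.02. The mean of log2(FPKM + 0.1) over the 36 members was 4.45, 4.78 and 4.62 in DKO and 4.71, 4.67 and 4.88 in WT Mo-MDSCs, which overlapped, and the difference of -0.14 became 0.02 on scaling to the total, where 19 members were below 0 and the median of all genes moved to 0.14. The members made up 0.447%, 0.556% and 0.492% of total FPKM in DKO Mo-MDSCs, a range that encloses that of the WT libraries. The summed neutrophil markers were lower in DKO than in WT Mo-MDSCs in every library, with 7 of their 11 genes past the study's thresholds in that direction and 1, Mmp8, in the other. The macrophage and dendritic cell genes were higher in sum in every DKO library, and 1 of 13 tested, Hmox1, was called (log2 fold change 1.06). The part of either list in the differences below was not tested.

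Slc2a6 had the lowest p of the members. It was 9.49, 15.0 and 12.8 FPKM in DKO and 19.3, 20.3 and 20.8 FPKM in WT Mo-MDSCs, without overlap (log2 fold change -0.71, SE 0.16, limma adjusted p = 0.15). Over the alternatives its log2 fold change ran from -0.86 to -0.53. Slc2a1 was 15.3, 13.5 and 13.9 FPKM in DKO Mo-MDSCs (log2 fold change 0.17, limma adjusted p = 0.47), and Slc2a3 was 8.97, 11.6 and 9.50 FPKM (log2 fold change -0.46, limma adjusted p = 0.40). Slc2a1 was therefore the highest of the 3 transporters in DKO replicates 1 and 3, whereas Slc2a6 was the highest in replicate 2. Slc2a1 made up 39.1% ± 5.8 (SD, n = 3) of their FPKM in DKO against 27.1% ± 3.3 (SD, n = 3) in WT Mo-MDSCs, and Slc2a6 had 33.6% ± 4.9 (SD, n = 3) against 43.1% ± 5.1 (SD, n = 3). Neither share overlapped between the genotypes, and the exact permutation p was 0.1, the smallest possible.

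Among the enzymes, Eno3 was 11.0, 10.4 and 12.4 FPKM in DKO Mo-MDSCs, below every WT library (log2 fold change -0.47, SE 0.14, limma adjusted p = 0.22). Ldha was 147, 177 and 151 FPKM, also below every WT library (log2 fold change -0.35, SE 0.11, limma adjusted p = 0.22), and Ldhb was 6.44, 10.2 and 7.60 FPKM, where replicate 2 exceeded the lowest WT library (log2 fold change -0.58, SE 0.23, limma adjusted p = 0.31). Gpi1 was 130, 171 and 139 FPKM, with replicate 2 just above the lowest WT library (log2 fold change -0.42, SE 0.16, limma adjusted p = 0.28). Tpi1 and Pgm2 were the other members without overlap, which made 5 of 34, all lower, against 12.9% of all genes that were lower and 7.96% that were higher without overlap (log2 fold changes -0.22 and -0.36, limma adjusted p = 0.34 and 0.23). None of these differences passed the adjusted threshold.

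Of the 14 members called higher in PMN-MDSCs than in WT Mo-MDSCs, 10 were below 0 in DKO against WT Mo-MDSCs and 4 above, with a median log2 fold change of -0.19 against -0.22 over the 34 members. The 2 comparisons share the WT Mo-MDSC libraries. Taldo1 was 387, 466 and 373 FPKM and Pgd 154, 197 and 151 FPKM, with log2 fold changes of -0.04 and 0.10 and 95% intervals of -0.31 to 0.23 and -0.23 to 0.42. Slc16a3 (11.6, 21.7 and 15.3 FPKM, log2 fold change -0.29), Pfkfb4 (28.4, 34.7 and 28.1 FPKM, log2 fold change -0.29) and Hk3 (66.3, 72.3 and 56.4 FPKM, log2 fold change 0.08) overlapped with WT. Aldoa was 303, 390 and 316 FPKM (log2 fold change 0.13) while Gapdh was 313, 380 and 306 FPKM (log2 fold change -0.31, SE 0.13, limma adjusted p = 0.31). Because Pgd and Gapdh parted, the ratio of Pgd to Gapdh was 0.492, 0.519 and 0.492 in DKO and 0.389, 0.359 and 0.383 in WT Mo-MDSCs, a pair chosen after the values were seen and given without a test. The largest rise was that of Slc16a1, with 7.61, 14.7 and 12.9 FPKM in DKO and 6.65, 12.0 and 5.68 FPKM in WT Mo-MDSCs (log2 fold change 0.55, SE 0.32, limma adjusted p = 0.45). Its highest WT library was replicate 2, where the summed FPKM of 11 red cell precursor genes was also the highest of the group (7402, against 3564 and 4721), and their part in this value was not tested.

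The rest of the pathway, taken from lists made by function, was measured beside the members. Of 16 tested further genes of glycolysis, 6 rose and 2 fell in WT Mo-MDSCs against PMN-MDSCs, where 18.5% of all genes rose and 20.6% fell. On scaling to the total, a count made after the data were seen as for the lists that follow, 10 rose and 1 fell. The pyruvate kinase of these cells, listed as Pkm2, was 623, 552 and 804 FPKM in PMN-MDSCs and 341, 332 and 450 FPKM in WT Mo-MDSCs (log2 fold change -0.81, SE 0.18, limma adjusted p = 0.0097). Pgm1, given like Pgm2 under its deposited name only, fell by 0.26 on the log2 scale. Of 9 further pentose phosphate genes 3 rose (Shpk, Rbks and Dera, by 0.33 to 0.59) and Prps1l1 fell (log2 fold change -3.21, limma adjusted p = 8.2e-05). Of 11 genes of pyruvate entry into the mitochondria Pdhx and Pdp2 rose and Brp44l, a subunit of the pyruvate carrier, fell (log2 fold change -0.81, limma adjusted p = 0.0044). Of 5 tested genes of gluconeogenesis G6pc3 and Slc37a4, which free glucose from glucose 6-phosphate, rose by 0.45 and 0.29 and Slc37a2 fell by 0.29 on the log2 scale. On scaling to the total 6 of the further pentose phosphate genes, 7 of pyruvate entry and 3 of gluconeogenesis rose, and 1, 1 and 0 fell. In DKO against WT Mo-MDSCs none of these genes was called.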

How the data were processed

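RNA of splenic PMN- and Mo-MDSCs was sequenced as stranded mRNA libraries. Per the labels and the study's methods, the authors mapped single-end reads to mm10 with TopHat2 2.0.13, Bowtie2 2.2.3 and SAMtools 0.1.19 and deposited FPKM values from Cuffnorm 2.2.1. The gene annotation and the library scaling within Cuffnorm are not given in the sources used here. FPKM are not counts, and reads that near-identical copies share may have been divided between them.

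Values as deposited were taken as log2(FPKM + 0.1), on which fold changes of low genes are understated. A gene entered a comparison when 3 or more of its 6 samples reached 1 FPKM, and the model was fitted by limma 3.58.1 in R 4.3.3 (lmFit, then eBayes with a trend, no covariates), each comparison on its own, with Benjamini-Hochberg adjustment over all genes tested. The thresholds of the study (fold change above 2 or below 0.5 between subsets, below 0.75 or its inverse between genotypes, unadjusted p below 0.05) were counted beside this. Shares within a family were compared by exact two-sided permutation tests, which cannot give less than 0.1 with 3 samples against 3. Python 3.11.15 with pandas 2.3.3, numpy 2.4.6, scipy 1.17.1 and matplotlib 3.10.9 was used for the rest. The fitting step was tested on simulated data.

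Groups and replicate numbers came from the titles of the samples, and no 2 libraries were alike. For WT Mo-MDSCs and PMN-MDSCs the deviations from the group means correlated across genes in each pair with the same number (r = 0.29, 0.48 and 0.20), so these numbers were taken to pair the samples from the data, since no label names a shared batch, and the fit with the replicate block is given where it moves a count.

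The members and lists were chosen with earlier results of these data known. All 36 members are accounted for. Values per sample are given for members called in either comparison, the highest isozyme of each family and members past the study's thresholds between genotypes, with further members given where they complete a family. Of other lists, called genes may be named, the largest first, up to 5 a list. Promoter sequences are from RefSeq (GRCm38.p6).

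Alternatives were pseudocounts of 1 and 0.01, no filter, a minimum of 1 FPKM throughout, a joint fit of the 9 samples, scaling to total FPKM, median-ratio scaling, quantile normalization, no variance moderation, the replicate block, replicates 2 and 3 only, and leaving out each sample in turn.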

Additional observations from a re-analysis of the deposited data

How the results depend on the processing

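Pseudocounts, filters and the joint fit of 9 samples moved no count of called members by over 1.5 times (18 between the subsets, 15 without a filter, 0 between genotypes). Of the 18 calls between the subsets, 13 held in every alternative, and leaving out 1 sample in turn left 13 to 20. Scaling to the total raised the higher calls to 12, set the members past the study's thresholds between subsets at 3 higher and 5 lower (from 1 and 8), and the mean member difference at -0.0205. Quantile normalization gave 8 higher calls, 5 lower past the study's thresholds and a difference of -0.28. With replicates 2 and 3 only, 2 were higher past the study's thresholds, and leaving out 1 sample gave 1 to 2. Between genotypes, members past the study's thresholds numbered 1 on scaling to the total and 2 without moderation or with replicates 2 and 3 only. Leaving out 1 sample gave 1 to 10 (1 to 9 lower and 0 to 2 higher). The mean member difference turned to 0.016 on scaling to the total. Numbers of the genotypes were not taken to pair them (r = 0.35, 0.23 and -0.07 for the same number). With the replicate block no member was called between genotypes, 1 was higher past the study's thresholds, and 20 genes in all were called, against 29. The causes were not tested.

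Some small differences, none of them called as deposited with all samples and no replicate block, changed sign. Those of Pfkl, Tpi1 and Tkt were called on scaling to the total, as were those of Tpi1 and Tkt with quantiles. On scaling to the total between subsets the log2 fold change was 0.19 for Hk1, 0.37 for Pfkl, 0.43 for Tpi1, 0.058 for Pgk1, 0.29 for Pgam1, 0.14 for Eno1, 0.16 for Pgm2, 0.36 for Pdk1 and 0.44 for Tkt. With quantiles it was 0.31 for Tpi1, 0.17 for Pgam1, 0.024 for Eno1 and 0.43 for Tkt, and for Tkt it was 0.00160 with median-ratio scaling and 0.0039 with replicates 2 and 3 only. Leaving out 1 sample gave -0.17 to 0.015 for Pdk1, -0.041 to 0.27 for Hk2, -0.091 to 0.10 for Tpi1, -0.30 to 0.0025 for Pgam1, -0.88 to 0.15 for Eno1, -0.14 to 0.17 for Tkt and -0.17 to 0.36 for Slc16a1. Between genotypes, scaling to the total gave 0.11 for Hk1, 0.053 for Pfkp, 0.071 for Pfkfb3, 0.14 for Aldoc, 0.14 for Eno1 and 0.12 for Taldo1. Median-ratio scaling gave 0.0066 for Aldoc and 0.0018 for Eno1, quantiles gave 0.094 for Eno1 and 0.15 for Taldo1, and replicates 2 and 3 only gave 0.093 for Hk1 and 0.21 for Aldoc. Leaving out 1 sample gave -0.19 to 0.11 for Aldoc, -0.18 to 0.20 for Hk1, -0.029 to 0.23 for Hk3, -0.47 to 0.25 for Eno1, -0.14 to 0.025 for Taldo1 and -0.029 to 0.20 for Pgd.

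Of the shares within a family, in percentage points, that of Aldoa changed sign with replicates 2 and 3 only (0.00978 between subsets, -0.0384 between genotypes). Leaving out 1 sample gave -0.047 to 0.052 and -0.015 to 0.11 for Aldoa. Between genotypes it gave -5.64 to 1.27 for Slc2a3, which was above 0 without WT Mo-MDSC replicate 3, and -0.51 to 6.71 for Eno1, which was below 0 without WT Mo-MDSC replicate 1. With no read numbers in the files, what depth limits could not be set out. The median SE of the members from the spread between samples was 0.15 between subsets and 0.13 between genotypes on the log2 scale, and differences of several times that size, such as -0.71 for Slc2a6 between genotypes, were not called.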

Other observations

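Some genes around the pathway that no comparison above covers also differed between the subsets. Of 18 tested regulators of glucose metabolism, 7 fell and 1 rose in WT Mo-MDSCs against PMN-MDSCs, where 20.6% of all genes fell and 18.5% rose. Txnip, which brakes glucose uptake and is induced by glucose, was 631, 707 and 721 FPKM in PMN-MDSCs, 265, 269 and 253 FPKM in WT and 273, 235 and 222 FPKM in DKO Mo-MDSCs (log2 fold change between subsets -1.39, limma adjusted p = 4.4e-05). Its relative Arrdc4 fell by 1.15 on the log2 scale. Egln3, an oxygen sensor that is itself induced by hypoxia-inducible factors, was 7.71, 7.77 and 11.1 FPKM in PMN-MDSCs and 1.05, 0.90 and 1.39 FPKM in WT Mo-MDSCs (log2 fold change -2.88, limma adjusted p = 7.9e-05), and Hif1a itself fell by 0.42. Of 15 tested targets of these factors outside glycolysis, Egln3 included, 7 fell and none rose. Bnip3, which marks mitochondria for removal, was 25.0, 26.2 and 26.1 FPKM in PMN-MDSCs and 6.73, 7.06 and 7.49 FPKM in WT Mo-MDSCs (log2 fold change -1.85, limma adjusted p = 1.1e-05).

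Of 12 tested genes that make NADPH or spend it on glutathione and thioredoxin, 5 fell and 2 rose, where 20.6% of all genes fell and 18.5% rose. Gsr, glutathione reductase, was 511, 461 and 599 FPKM in PMN-MDSCs and 215, 196 and 255 FPKM in WT Mo-MDSCs (log2 fold change -1.24, limma adjusted p = 0.00054), and Txn1, thioredoxin, fell by 1.54, while Idh1, another source of NADPH, rose by 0.48. Of 14 tested glycogen genes 2 fell and 1 rose, against the same 20.6% and 18.5% of all genes. Pygl, which breaks glycogen down, was 393, 358 and 515 FPKM in PMN-MDSCs and 102, 90.9 and 134 FPKM in WT Mo-MDSCs (log2 fold change -1.96, limma adjusted p = 0.00026), and Phka2, a subunit of the kinase that activates it, rose by 1.10.

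Between genotypes none of the genes of these 4 lists was called as deposited without the replicate block. With quantile normalization 1 glycogen gene was called lower, and with the block 1 gene of NADPH use was called higher. As deposited without the block, the nearest to a call was Gyg, glycogenin, the primer of glycogen synthesis. It was 39.7, 45.6 and 40.9 FPKM in DKO and 66.0, 64.2 and 78.6 FPKM in WT Mo-MDSCs (log2 fold change -0.72, limma adjusted p = 0.057). Gclm, a subunit of the enzyme that starts glutathione synthesis, was 53.0, 68.9 and 55.5 FPKM in DKO and 24.3, 39.1 and 25.8 FPKM in WT Mo-MDSCs (log2 fold change 1.01, limma adjusted p = 0.11). Neither gene overlapped between the genotypes, and in PMN-MDSCs Gclm was 41.2, 42.9 and 42.3 FPKM.

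The counts of these lists between the subsets depend on the scaling. On scaling to the total, a count made after the data were seen, 5821 of all genes were higher and 950 lower. The regulators then had 5 lower and 6 higher, the targets of hypoxia-inducible factors 5 and 5, the genes of NADPH use 2 and 6 and the glycogen genes 1 and 5.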
